A study of Homo sapiens with 4 samples.

Results

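The zinc finger genes of human chromosome 19 were examined in nucleosome maps of a neuroblastoma cell line. Members were all protein-coding genes of chromosome 19 whose symbol is ZNF followed by a number and at most 1 letter in the GENCODE v44lift37 annotation (hg19), which gave 246 of the 20163 protein-coding genes. They were compared with the 262 ZNF-named genes of other chromosomes, the 1234 other protein-coding genes of chromosome 19 and all 19917 other protein-coding genes. The study asked how nucleosome positioning changes when MYCN is reduced. Nuclei of BE(2)C, a human neuroblastoma cell line that carries amplified MYCN, were digested with micrococcal nuclease (MNase), and the DNA of mononucleosomes was sequenced. There were 2 control libraries and 2 MYCN knockdown libraries. By the labels the control cells had the genotype wild type and the others N-myc kd, and cells of both groups received siRNA with Lipofectamine 2000, at a concentration on which the labels and the methods differ, and were collected the next day. The labels do not say whether the replicates came from separate cultures, and p-values here measure only the spread between these libraries.

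Most members encode Kruppel-associated box (KRAB) zinc finger proteins. The zinc fingers bind DNA, often within transposable elements, and the KRAB domain recruits TRIM28 (KAP1), which brings the methyltransferase SETDB1 and heterochromatin protein 1 and leads to H3K9me3 and silencing. The genes arose by tandem duplication, lie in clusters and usually carry the whole finger array in a long last exon, and these arrays are themselves known as H3K9me3 domains in many cell types.

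The libraries held 147726171 and 242544884 reads in nucleosomes for control replicates 1 and 2, and 147370973 and 239257113 reads for knockdown replicates 1 and 2. Each nucleosome was 147 bp long, with a read count of at least 6 and a fuzziness, the standard deviation in bp of the read midpoints around the predicted centre (dyad). The median nucleosome had 12 reads in both replicates numbered 1 and 18 reads in both numbered 2. Reads over the MYCN promoter (TSS-1000 to TSS+1000) were 97.7, 81.1, 100.2 and 82.1 times those over the median promoter in the same order, MYCN being the gene amplified in this line. MNase-seq does not measure expression, so the knockdown itself could not be checked in these libraries. The paper reports a significant decrease of MYCN mRNA and protein in separate assays.

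A zinc finger unit is shown first because the last exon is built from it. Translation of the annotated coding sequences found 3091 C2H2 patterns in the members, 3030 of them in the last exon, with a median of 12 and at most 36 per gene. In the last exon, 2546 fingers were followed by the next after exactly 84 bp. The units below start at the first cysteine codon, and capitals mark the codons of the paired cysteines and histidines that hold zinc. ZNF91 (chr19:23543636-23543719, minus strand) and ZNF93 (chr19:20044875-20044958, plus strand) are repressors of SVA and LINE-1 retrotransposons, and the ZNF568 unit lies at chr19:37441313-37441396 on the plus strand. In the consensus of the 2546 units, capitals mark bases shared by at least 90% of them.
ZNF91 finger: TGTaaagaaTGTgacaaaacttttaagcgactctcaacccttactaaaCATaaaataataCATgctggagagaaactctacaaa
ZNF93 finger: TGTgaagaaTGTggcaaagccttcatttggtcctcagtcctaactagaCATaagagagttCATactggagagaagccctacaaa
ZNF568 finger: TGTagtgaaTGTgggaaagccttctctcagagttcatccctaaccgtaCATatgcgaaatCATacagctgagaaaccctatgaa
consensus of fingers: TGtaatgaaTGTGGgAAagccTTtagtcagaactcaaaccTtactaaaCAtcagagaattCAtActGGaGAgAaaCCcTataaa

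The promoters that stood at the ends of the range are shown next, from 250 bases before the transcription start site (TSS) to 29 bases after it, in the direction of transcription (GRCh37, the build of the files). ZNF419 (chr19:57998868-57999147, plus), ZNF112 (chr19:44860803-44861082, minus), ZNF599 (chr19:35264091-35264370, minus) and ZNF567 (chr19:37178264-37178543, plus) had no nucleosome at the TSS in any library. They were picked for the lowest fitted values of reads at the TSS against the flanks. Among promoters without reads there this rank follows the flank reads, so it does not show a deeper gap. ZNF536 (chr19:30863041-30863320, plus) and ZNF561 (chr19:9731879-9732158, minus) held a nucleosome there in every library, with the most reads. Capitals mark ACTACA followed, after any 3 bases, by CCC on either strand, a form of the element bound by ZNF143 and THAP11, which was chosen after these promoters had been seen.
ZNF419: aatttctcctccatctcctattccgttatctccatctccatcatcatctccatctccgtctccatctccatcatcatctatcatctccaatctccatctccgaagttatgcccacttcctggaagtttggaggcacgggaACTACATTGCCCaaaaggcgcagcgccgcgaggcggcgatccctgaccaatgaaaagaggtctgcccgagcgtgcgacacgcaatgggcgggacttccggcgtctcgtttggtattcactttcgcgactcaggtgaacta
ZNF112: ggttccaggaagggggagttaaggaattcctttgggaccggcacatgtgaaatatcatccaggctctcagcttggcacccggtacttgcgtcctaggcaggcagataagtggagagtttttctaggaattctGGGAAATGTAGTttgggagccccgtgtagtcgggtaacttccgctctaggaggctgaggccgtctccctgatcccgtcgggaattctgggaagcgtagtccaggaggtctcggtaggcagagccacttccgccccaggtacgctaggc
ZNF599: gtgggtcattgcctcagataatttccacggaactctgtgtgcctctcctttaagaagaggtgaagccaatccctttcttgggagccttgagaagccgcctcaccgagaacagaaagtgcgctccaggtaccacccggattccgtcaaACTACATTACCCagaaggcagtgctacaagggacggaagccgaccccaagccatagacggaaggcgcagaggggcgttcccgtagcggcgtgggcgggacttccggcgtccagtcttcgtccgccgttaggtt
ZNF567: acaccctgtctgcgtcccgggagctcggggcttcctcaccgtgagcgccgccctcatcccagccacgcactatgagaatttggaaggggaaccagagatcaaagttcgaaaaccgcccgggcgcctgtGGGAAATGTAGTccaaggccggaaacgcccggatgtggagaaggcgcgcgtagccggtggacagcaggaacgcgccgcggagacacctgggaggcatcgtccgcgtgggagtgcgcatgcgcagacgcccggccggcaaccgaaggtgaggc
ZNF536: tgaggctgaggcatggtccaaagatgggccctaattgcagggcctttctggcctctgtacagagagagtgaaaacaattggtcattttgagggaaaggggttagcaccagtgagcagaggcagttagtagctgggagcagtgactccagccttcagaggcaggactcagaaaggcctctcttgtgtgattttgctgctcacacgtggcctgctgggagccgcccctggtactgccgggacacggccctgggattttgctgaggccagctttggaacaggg
ZNF561: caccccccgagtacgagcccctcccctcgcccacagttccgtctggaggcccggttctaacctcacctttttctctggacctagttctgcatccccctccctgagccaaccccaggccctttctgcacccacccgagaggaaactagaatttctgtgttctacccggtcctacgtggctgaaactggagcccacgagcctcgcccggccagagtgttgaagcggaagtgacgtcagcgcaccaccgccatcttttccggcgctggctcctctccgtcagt

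The promoters of the zinc finger genes had a deep gap at the TSS. Averaged over members, with each gene first scaled to its own total, the read density of the window from TSS-200 to TSS+50, the nucleosome-free region (NFR), was 0.394, 0.387, 0.380 and 0.394 of that of its flanks (the rest of TSS-1000 to TSS+1000), with the libraries given here and throughout as control 1, control 2, knockdown 1 and knockdown 2. All other protein-coding genes had 0.625, 0.617, 0.597 and 0.621. The members' ratio minus that of all other genes was -0.226 ± 0.00610 (SD over 4 libraries), lower in 4 of 4 libraries. The difference was -0.221 from other genes of chromosome 19 and -0.102 from ZNF genes of other chromosomes, also lower in 4 of 4 (exact sign-flip permutation test over libraries, two-sided, p = 0.125 each, the smallest that 4 libraries allow, adjusted p = 0.146 over 21 comparisons).

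**Figure D1:**
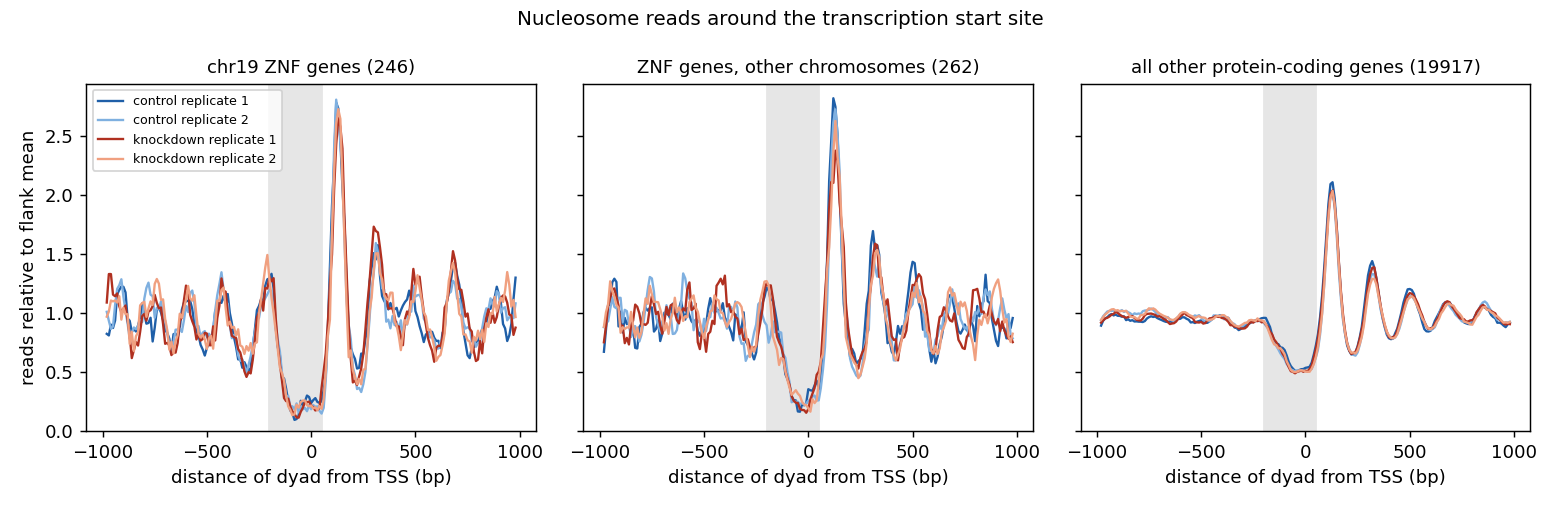
Reads by distance of the dyad from the TSS in bp, relative to the mean of the flanks, in 10-bp bins smoothed over 5 bins, for each library as a line; the grey band is the window from TSS-200 to TSS+50. In the chromosome 19 genes the trace falls to between 0.0962 and 0.150 of the flank level, against 0.157 to 0.227 in ZNF genes of other chromosomes and 0.491 to 0.510 in all other genes, and the peak downstream reaches 2.65 to 2.81.

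The flanking nucleosomes of the members were also marked. The peak downstream of the TSS stood 120 to 130 bp from it in each library and reached 2.79, 2.81, 2.65 and 2.73 times the flank mean, against 2.11, 2.03, 2.04 and 2.04 in all other genes. The ZNF genes of other chromosomes reached 2.82, 2.73, 2.38 and 2.63, so their range overlapped that of the members.

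A nucleosome counted as inside the window when at least 80% of it lay there. The window was empty in 193 (78.5%), 177 (72%), 200 (81.3%) and 176 (71.5%) of the 246 members in the 4 libraries. In all other genes the shares were 58.2%, 52.4%, 60.0% and 51.9%, and in ZNF genes of other chromosomes 71.8%, 62.2%, 73.3% and 64.5%. The members' share exceeded that of all other genes by 20.2 ± 0.801 percentage points (SD, 4 libraries), that of other chromosome 19 genes by 22.4 ± 2.74 and that of other ZNF genes by 7.87 ± 1.36, with the same sign in 4 of 4 libraries (exact sign-flip permutation test, p = 0.125 each, adjusted p = 0.146). In all, 136 members (55.3%) were empty in every library and 24 (9.76%) in none, against 32.0% and 20.1% of all other genes.

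The window share was 75.2% ± 4.60 in the control (SD, n = 2) and 76.4% ± 6.90 after MYCN knockdown (SD, n = 2), a difference of 1.22 percentage points that was within the spread of the replicates (exact permutation test, two-sided, p = 1.0; 2 against 2 cannot go below 0.333). It turned to -2.03 without control replicate 2 and -3.66 without knockdown replicate 1. The share was higher in the 2 shallower libraries. With the read minimum per nucleosome scaled to depth, the shares were 78.9%, 80.5%, 81.3% and 82.5%, and the libraries no longer split by depth. The knockdown libraries then stood above both controls, by 2.24 percentage points, in a design whose exact permutation test cannot go below 0.333. All other genes had 61.1%, 61.3%, 60.0% and 61.1%, and ZNF genes of other chromosomes 75.6%, 72.5%, 73.3% and 73.7%. Because reads are whole numbers, the scaled minimum was higher in control replicate 1 than in knockdown replicate 1, at nearly equal depth.

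Of the 15 members on a list of well-studied zinc finger genes, 8 were empty in all 4 libraries. These were ZNF91, ZNF93, ZNF431, ZNF675, ZNF180, ZNF175, ZNF350 (ZBRK1, a BRCA1 partner) and ZNF274, which binds the ends of zinc finger genes and recruits SETDB1. ZNF43, ZNF420 (APAK, a p53 regulator) and ZNF154, often hypermethylated in tumours, were empty in 3 libraries, and ZNF154 held 20 reads in knockdown replicate 2 alone. The imprinted gene ZNF331 was empty in 1 library and held 11, 0, 8 and 8 reads in the window. ZNF568 held 13, 26, 11 and 34 reads, in library order as above. ZNF536, a regulator of neuronal differentiation that stands outside the clusters, held 25, 36, 38 and 40 reads.

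ZNF419 had 0 reads in the window in 4 of 4 libraries beside 144, 249, 164 and 239 reads in the flanks. ZNF77, the last of the 5 with the lowest fitted values, had 0 reads beside 151, 197, 124 and 225. ZNF561 had 22, 31, 19 and 37 reads in the window beside 91, 165, 90 and 174 in the flanks. Among the other members with the most window reads, ZNF208 held 19, 22, 28 and 33 and ZNF114 held 14, 23, 18 and 38. Over the 136 members empty in all libraries the median flank count was 99, 166, 104 and 170.5 reads, and over the 24 that held a nucleosome in each it was 102.5, 165.5, 105 and 168.5. These medians differed by less than 5 reads.

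The test of the window against its flanks in each promoter (edgeR quasi-likelihood, library as covariate, Benjamini-Hochberg over 20077 promoters) passed the adjusted threshold of 0.05 in 0 members and in 0% of all promoters. At an unadjusted p under 0.05 the window was lower in 124 of 246 members (50.4%), against 24.5% of all promoters tested, and in 74 to 76 members with any 1 library left out (30.1% to 30.9%, against 13.6% to 14.5% of all promoters). Windows with 0 reads in all libraries have no fitted fold change of fixed size, and none is given.

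The members had a larger mean share of empty windows than all other genes at each level of promoter CpG content. CpG observed over expected from TSS-250 to TSS+50 had a median of 0.768 in members and 0.773 in all other genes. The contrast was wide among CpG-poor promoters, below 0.4, where the window was empty in 69.6% ± 8.99 of 14 members (SD over 4 libraries) and in 32.2% ± 2.56 of 4901 other genes. Of these 14 members, ZNF536, ZNF404 and ZNF114 were held in all 4 libraries and had the lowest ratios together with ZNF676. Between 0.4 and 0.6 the shares were 78.2% ± 4.91 of 39 members and 45.1% ± 3.04 of 1649 other genes, and between 0.6 and 0.8 they were 71.9% ± 6.18 of 90 and 60.5% ± 3.67 of 4144. At 0.8 and over they were 79.1% ± 5.11 of 103 and 67.8% ± 5.31 of 9125. The ZNF genes of other chromosomes lay between the members and all other genes, with 42% ± 17.9 of 22, 75.9% ± 4.88 of 29, 68.3% ± 8.17 of 71 and 70.2% ± 5.16 of 140 genes from the lowest to the highest stratum, and from 0.4 to 0.8 their means were within 1 SD of those of the members. By flank reads, members had 82.7%, 72.7% and 81.3% at 0.4 to 0.6, 0.6 to 0.8 and 0.8 to 1.2 flank RPM (reads scaled to those of the library), against 57.3%, 56.9% and 45.9% of other genes. These strata were added after the data had been seen.

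**Figure D2:**
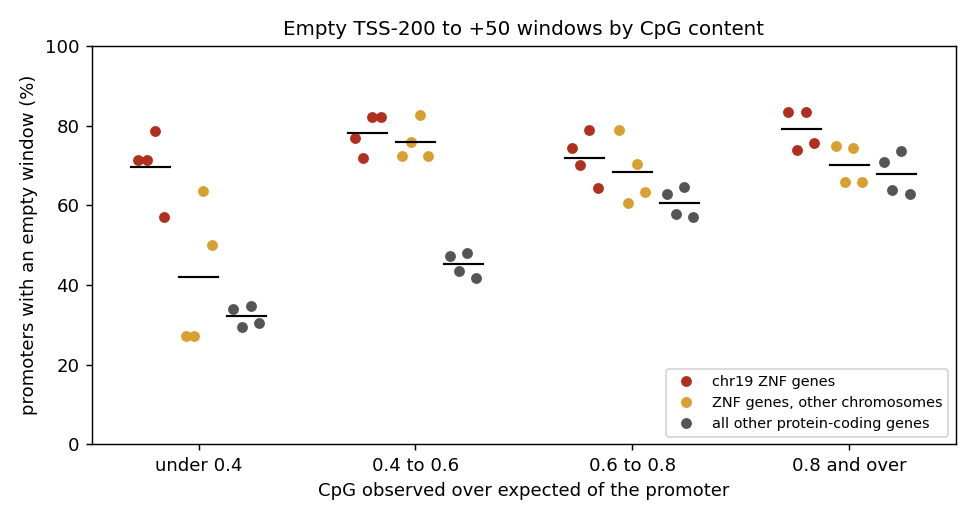
Share of promoters with an empty window in percent, by CpG observed over expected of the promoter; each point is a library and each bar the mean of 4 libraries. The chromosome 19 genes stay between 57.1% and 83.5% in every stratum, while all other genes rise from a mean of 32.2% to 67.8%.

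The element of ACTACA, any 3 bases and CCC, searched on both strands, was present from TSS-250 to TSS+50 in 58 of 246 members (23.6%), in 9.92% of the ZNF genes of other chromosomes, in 3.07% of all other genes and in 3.32% of all promoters. Members with it had an empty window in 87.9%, 77.6%, 87.9% and 81.0% of cases in the 4 libraries, and members without it in 75.5%, 70.2%, 79.3% and 68.6%. The same order was seen in all other genes, with 85.8%, 77.6%, 87.7% and 81.3% against 57.3%, 51.6%, 59.1% and 51.0%. In the ZNF genes of other chromosomes control replicate 2 went the other way, with 92.3%, 61.5%, 84.6% and 84.6% against 69.5%, 62.3%, 72% and 62.3%. Of the members with the element 69.0% were empty in all 4 libraries, against 51.1% of those without it. The element was chosen from the printed promoters, so its presence in them supports nothing. ZNF419, ZNF112, ZNF599 and ZNF567 are also counted among the members with it. The contrast between members with and without it is therefore not independent of that choice. The E-box CACGTG, the preferred sequence of MYC proteins, read on both strands in the same window, was present in 9 members (3.66%) and in 8.73% of all promoters. These matches describe letters in the window and not binding.

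The members fell into 16 runs whose neighbours lay less than 1 Mb apart, of which 9 held at least 5 genes. Among these the mean share of empty windows was lowest in the run from ZNF175 to ZNF331 (39 members, chr19:52074536-54083523), with 53.8%, 59.0%, 64.1% and 51.3% in the 4 libraries. The run from ZNF653 to ZNF791 (25 members, chr19:11594244-12744648) had 88%, 84%, 100% and 96%, and 20 of its members were empty in all 4. The first run, from ZNF554 to ZNF77 (5 members, chr19:2819866-2944969), was empty in every member and library. The largest run, from ZNF628 to ZNF446 (59 members), had 88.1%, 78%, 84.7% and 71.2%, and the pericentromeric run from ZNF101 to ZNF254 (37 members) had 83.8%, 73%, 89.2% and 75.7%. The ZNF175 to ZNF331 run lay below both of these large runs in each library.

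**Figure D3:**
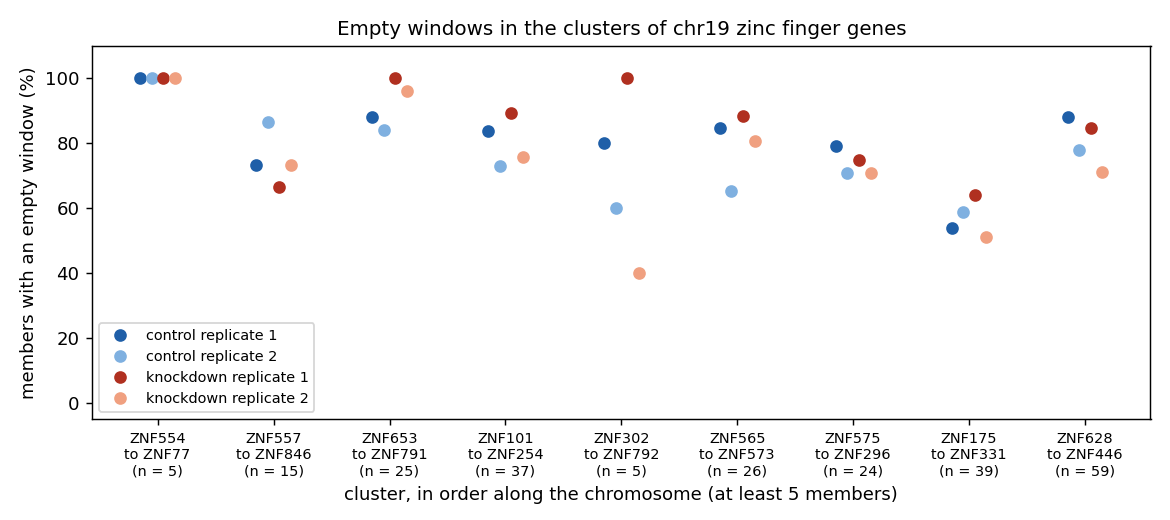
Share of members with an empty window in percent, for the 9 runs with at least 5 members in order along the chromosome; each point is a library. The run from ZNF175 to ZNF331 lies between 51.3% and 64.1%, and the run from ZNF653 to ZNF791 between 84% and 100%.

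A KRAB box-like pattern was found in the first 200 residues of 184 members (74.8%). Their windows were empty in 79.3%, 75%, 82.6% and 72.3% of cases, against 75.8%, 62.9%, 77.4% and 69.4% of the 62 others. The pattern misses some KRAB genes, and the groups are given as the pattern made them. By number of fingers, the windows were empty in 71.6%, 71.6%, 76.1% and 68.7% of the 67 members with up to 9 fingers, in 81.6%, 74.4%, 84.8% and 72.8% of the 125 with 10 to 15, and in 79.6%, 66.7%, 79.6% and 72.2% of the 54 with over 15. The middle group was highest in each library, without a test.

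Few members differed in window state between the groups, and these counts have no test. The window was empty in each control for 163 members, and in 6 of these (3.68%) it was filled in each knockdown library (NFR loss), against 5.25% of all promoters empty in each control. ZNF728 went from 0 and 0 reads to 14 and 25, and ZNF470 from 0 and 0 to 16 and 19. ZNF234, ZNF296 and ZNF671 were the next 3 by reads. ZNF671, a gene often silenced by methylation in tumours, held 13 and 13 reads after knockdown. In the opposite direction, 168 members were empty in each knockdown library and 5 of these (2.98%) were filled in each control (NFR formation), against 5.62% of all promoters empty in each knockdown library. These were ZNF578, with 10 and 22 reads in the controls, ZNF829, with 9 and 16, ZNF347, ZNF264 and ZNF844. The named windows held 8 to 25 reads, where a listed nucleosome needed 6 and the median one had 12 or 18, and both shares were below those of all promoters. With 1 library left out fewer had to agree, and loss counted 23 members without knockdown replicate 1 and 10 without each of the others, while formation counted 26 without control replicate 1, 11 without control replicate 2, 8 without knockdown replicate 1 and 12 without knockdown replicate 2. The matching counts over all promoters were not taken, so these numbers have no background and do not show that members switch more often.

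No member passed the adjusted threshold for a difference in occupancy between MYCN knockdown and control (edgeR quasi-likelihood with group as the only term, Benjamini-Hochberg, adjusted p under 0.05), nor did any other gene. For the promoter from TSS-2000 to TSS+1000 this was 0 of 246 members and 0% of 20088 promoters, and at an unadjusted p under 0.05 it was 11 members (4.47%) against 3.14%. For the gene body from TSS+1000 to the transcript end it was 0 of 246 and 0% of 19401, and 5 members (2.03%) against 1.95% unadjusted. For the last exon it was 0 of 246 and 0% of 19330, and 8 members (3.25%) against 2.92% unadjusted. DESeq2 called 0 members in each region, with 5 (2.03%), 0 and 2 (0.813%) at an unadjusted p under 0.05, against 1.04%, 0.253% and 1.17% of all genes tested.

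The members with the smallest p were mainly higher after knockdown. ZNF91 had 102 and 241 promoter reads in the control and 177 and 291 after knockdown, a log2 difference of 0.52 (unadjusted p = 0.0018, adjusted p = 0.999 by edgeR). These are raw reads of libraries that differ in depth, and within each replicate number the knockdown library held more. ZNF649, ZNF208, ZNF808 and ZNF681 followed, at log2 differences of 0.43, 0.41, 0.42 and 0.42. In the body, ZNF235 had 868 and 1513 reads against 987 and 1672 (log2 0.20), and ZNF414 had 261 and 383 against 211 and 254 (log2 -0.41). ZNF615, ZNF177 and ZNF790 completed the 5 smallest. In the last exon, ZNF573 had 89 and 156 reads against 141 and 191 (log2 0.50), followed by ZNF419, ZNF57, ZNF550 and ZNF28, of which only ZNF57 was lower after knockdown (log2 -0.44). None of these passed the adjusted test.

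Described as a list, without a test, more members had positive than negative differences. The median log2 difference was 0.05 for promoters, 0.03 for bodies and 0.05 for last exons, and 63.4%, 67.9% and 64.2% of members had a positive value, against 50%, 48.7% and 50% of all genes tested. The median stayed positive with any 1 library left out, but its size moved. Without control replicate 1 the medians were 0.014, 0.0087 and 0.034. In that setting 52.8%, 54.1% and 57.7% of members were positive, against 49.4%, 47.3% and 50.2% of all genes tested. The medians without knockdown replicate 2 were 0.022, 0.010 and 0.053, without control replicate 2 they were 0.085, 0.056 and 0.068, and without knockdown replicate 1 they were 0.076, 0.047 and 0.049. With a correction for GC content the medians were 0.04, 0.02 and 0.02, with 63.0%, 60.2% and 56.9% positive. Of all genes tested 50.5%, 44.4% and 50.1% were then positive.

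Over the gene body the members carried somewhat more reads per length than all other genes together, but fewer than other genes of chromosome 19. These densities were not corrected for copy number, whose part was not tested. The median density was 0.408, 0.424, 0.415 and 0.425 RPKM (reads per kb of region, scaled to the reads of the library) in the 4 libraries, against 0.386, 0.389, 0.385 and 0.386 in all other genes, 0.354, 0.376, 0.365 and 0.380 in ZNF genes of other chromosomes and 0.530, 0.514, 0.501 and 0.491 in other genes of chromosome 19. The members were higher than all other genes by 0.0315 ± 0.00754 (SD) and differed from the other genes of the chromosome by -0.0912 ± 0.0230, each with 1 sign in 4 of 4 libraries (exact sign-flip permutation test, p = 0.125, adjusted p = 0.146). Median GC content was 42.7% in member bodies, 44.4% in all other genes and 53.5% in other genes of chromosome 19, so it was highest in the set with the highest density but not higher in members than in all other genes, and its part in the differences was not tested. The knockdown and control densities of the members, 0.420 ± 0.00743 and 0.416 ± 0.0112 (SD, n = 2 each), differed by less than the spread of the replicates (exact permutation test, p = 0.667).

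Density varied along the chromosome. ZNF726, at 0.319 ± 0.0280 (SD, 4 libraries), ZNF730 and ZNF615 were lowest, and ZNF554, at 0.571 ± 0.0179, ZNF653 and ZNF296 were highest. The body of ZNF726 had 36.1% GC and that of ZNF554 49.8%. The run from ZNF101 to ZNF254 had the lowest median of the larger runs, at 0.361 ± 0.0203, and a median GC of 38.6%, while the run from ZNF628 to ZNF446 had 0.458 ± 0.00488 and 46.3%. A median of 99.7% of the 100-base words of member bodies occurred a single time in the genome and 8 members were under 90%.

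Neighbouring dyads in member bodies were 199, 198, 198 and 198.5 bp apart (median), against 201, 200, 201 and 200 bp in all other genes and 198, 198, 197.5 and 198.5 bp in other genes of chromosome 19. The difference from all other genes was -2.12 ± 0.629 bp (SD), the same sign in 4 of 4 libraries (exact sign-flip permutation test, p = 0.125, adjusted p = 0.146).

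The last exon of the members had a median length of 3301 bp, against 1358 bp in all other genes, and carried a median of 14, 15, 15 and 15 nucleosomes. Its density was compared with the rest of the body within each gene and library (edgeR quasi-likelihood, Benjamini-Hochberg over 17015 genes). Of 240 members tested, 8 were higher in the last exon and 27 lower, against 9.64% and 12.1% of all genes tested. With a correction for GC content 8 members were higher and 2 lower, against 1.77% and 1.7%. None of the 8 called higher with the correction had been called without it, while both of the lower ones, ZNF787 and ZNF865, had. ZNF865 was named after its values were seen. Without control replicate 1 or knockdown replicate 1 there were 4 higher each, and with any 1 library left out 12 to 17 lower, against 5.14% to 6.75% of all genes higher and 7.01% to 8.5% lower over the 4 fits. With the coding part alone, 8 of 234 members were higher (3.42%) and 2 lower (0.855%), against 22.2% and 1.36% of the 8185 genes tested. With at least 12 reads per nucleosome 1 was higher and 2 lower, against 1.39% and 1.59% of all genes. The median log2 difference of the members was -0.02 without and 0.10 with that correction, against -0.004 and 0.03 over all genes.

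ZNF43 had 0.217, 0.279, 0.244 and 0.306 RPKM in the last exon (34.7% GC) and 0.350, 0.410, 0.345 and 0.385 in the rest of the body (42.2% GC), a log2 difference of -0.51 (adjusted p = 0.0024 by edgeR) that became -0.05 with GC correction. ZNF254, ZNF772 and ZNF675 were alike, at -0.52, -0.46 and -0.45, and at -0.08, -0.09 and 0.10 with the correction. ZNF787, whose last exon had 70.3% GC, kept its call, at -0.58 (adjusted p = 0.0031) and -0.47 (adjusted p = 0.0285). ZNF875, the highest, had 0.585, 0.546, 0.598 and 0.533 in the last exon and 0.365, 0.390, 0.375 and 0.407 in the rest (log2 0.55, adjusted p = 0.0020), which was 0.25 with GC correction (adjusted p = 0.0962). ZNF211, ZNF66, ZNF404 and ZNF45 followed at 0.45, 0.37, 0.37 and 0.29, and none of these passed with GC correction. In 177 members each 100-base word of the last exon occurred a single time in the genome, and 10 members were under 90%.

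**Figure D4:**
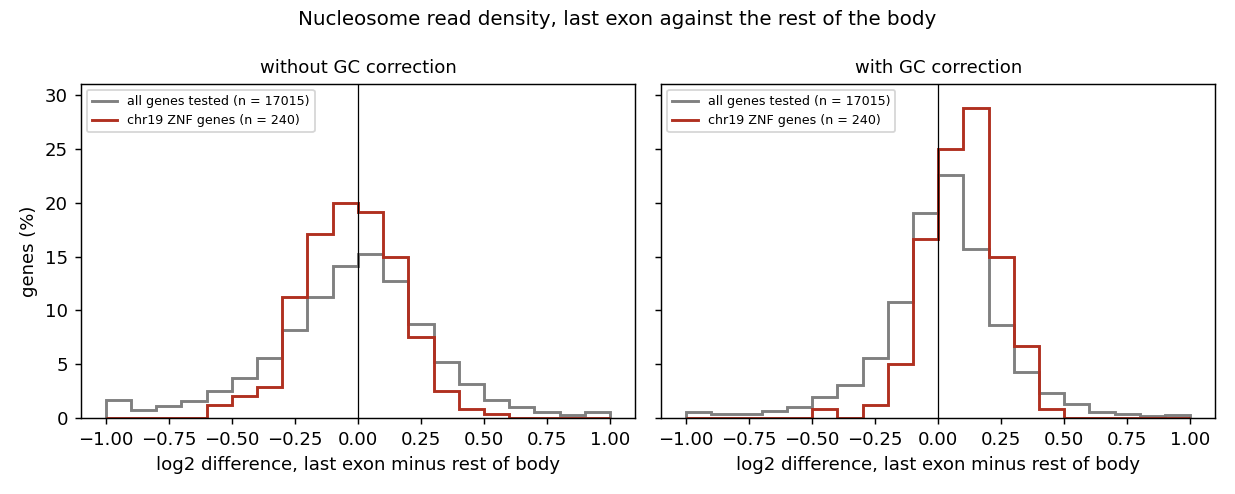
Share of genes in percent by log2 difference in read density between the last exon and the rest of the body, without and with GC correction; the outermost bins also hold values beyond the axis. The median of the 240 chromosome 19 genes moves from -0.02 to 0.10 with the correction.

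Fuzziness in the last exons was slightly higher in the members than in all other genes in each library. The median fuzziness of the members' last exons was 35.2, 36.8, 35.2 and 36.7 bp in the 4 libraries, and in all other genes 34.9, 36.4, 34.9 and 36.3 bp, a difference of 0.333 ± 0.0739 bp (SD) with the same sign in 4 of 4 libraries (exact sign-flip permutation test, p = 0.125, adjusted p = 0.146). Within genes, the last exon exceeded the rest by a median of 0.610 bp over 227 members and 0.225 bp over all genes tested. In limma, 0 members and 0% of 8913 genes passed the adjusted threshold, and at an unadjusted p under 0.05 the last exon was higher in 44 members (19.4%) against 8.4%. Over whole bodies the members had 34.4, 36.5, 34.5 and 36.4 bp and all other genes 34.7, 36.4, 34.6 and 36.3 bp, with no common sign. Between knockdown and control 0 of 242 members passed for body fuzziness and 0% of 17665 genes, and at an unadjusted p under 0.05 it was 0 members against 0.311%. All fuzziness values followed the replicate number, and with it depth, more than the group.

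Within the finger arrays, dyads were not spread evenly over the 84-bp unit. Reads were summed by the position of the dyad after the first cysteine codon of each finger, over 1140 to 1181 nucleosomes per library. In the 12 bp from that codon the members had 1.53, 1.23, 1.43 and 1.32 times the even level, and from 36 to 47 bp they had 0.768, 0.767, 0.744 and 0.773. The 24 bp around the codon, which make up 28.6% of the unit, held 40.7%, 34.3%, 37.6% and 37.2% of reads. The length of the mean vector, 0 for an even spread and 1 for a single position, was 0.203, 0.122, 0.156 and 0.153. In the ZNF genes of other chromosomes it was 0.127, 0.0756, 0.115 and 0.110, lower than in the members in each library.

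The period itself was less sharp. Taking 80 or 88 bp in place of 84 bp gave 0.190, 0.111, 0.156 and 0.137 or 0.215, 0.138, 0.169 and 0.167, since each window still began at a finger. Over 229 whole arrays measured from their first finger, an addition made after the data had been seen, 84 bp had the longest vector of 13 periods from 72 to 96 bp in 2 libraries and 82 bp in the other two. GC content also varied along the unit, from 36% in the 12 bp before the codon and 37.5% in the 12 bp after it to 53.3% from 60 to 71 bp, and its part in the pattern was not tested. At gene level, 148 of 236 members with reads (62.7%) held more than the even share around the codon in control replicate 1 and 132 of 237 (55.7%) in control replicate 2. In knockdown replicates 1 and 2 it was 140 and 139 of 237 (59.1% and 58.6%). The ZNF genes of other chromosomes had 51.9%, 50.3%, 51.9% and 49.7% in library order.

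**Figure D5:**
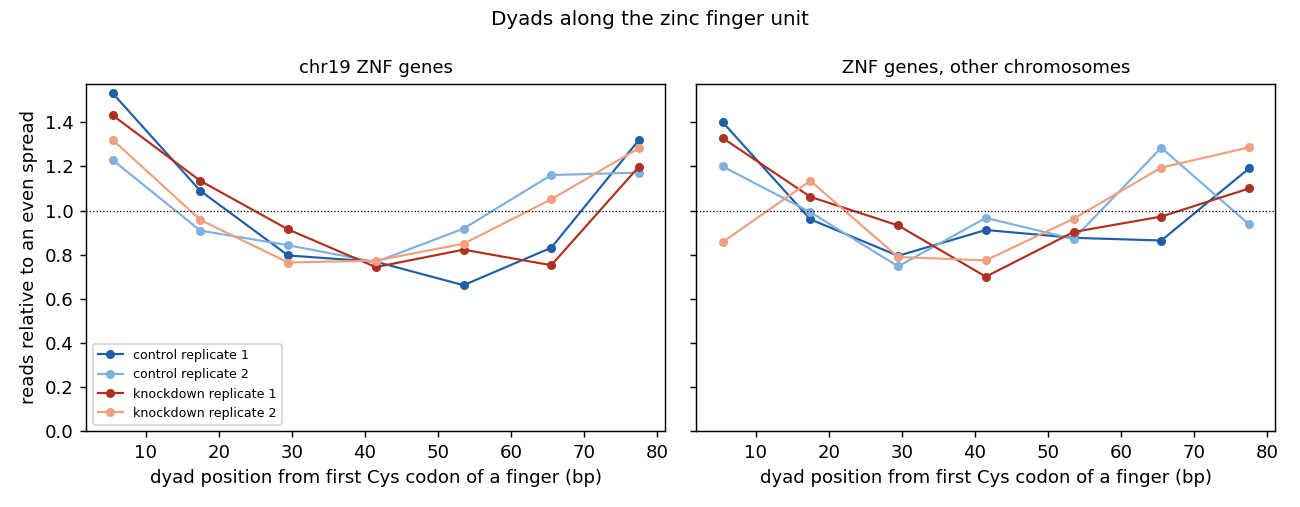
Reads by dyad position within the zinc finger unit, in bp from the first cysteine codon in 12-bp bins, relative to an even spread (dotted line), with a line for each library. In the chromosome 19 genes all 4 libraries lie above 1.2 in the first bin and below 0.8 from 36 to 47 bp.

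Dyad positions in the last exons were shared between libraries only in part. A dyad of control replicate 1 and the nearest of control replicate 2 within 100 bp were a median of 26 bp apart, with 26.1% within 10 bp. Knockdown replicates 1 and 2 were 25 bp apart, also with 26.1%. Control replicate 1 and knockdown replicate 1 were 22 bp apart, with 30.9%, and control replicate 2 and knockdown replicate 2 were 27 bp apart, so libraries of different groups lay about as close as replicates. Over whole member bodies the control replicates were 22 bp apart, and over all of chromosome 19 they were 20 bp apart.

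Among 23 genes that act with KRAB zinc finger proteins, 0 passed the adjusted threshold for promoter occupancy. At an unadjusted p under 0.05 by edgeR it was 0 of 23, against 3.14% of all promoters tested. TRIM28, the corepressor itself and a gene of chromosome 19, had a log2 difference of -0.09, SETDB1 0.09 and CBX5, a heterochromatin protein 1 gene, 0.03. Of the 23 promoters, 12 were empty in all 4 libraries, SETDB1 and CBX5 among them, and 4 (CBX3, HDAC2, MORC2 and SMARCAD1) held a nucleosome in each. Of all genes outside the members, 32.0% were empty in all 4 libraries and 20.1% held a nucleosome in each.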

How the data were processed

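The authors sequenced MNase-digested DNA in paired ends, and the submitters' processing notes name CASAVA 1.9, Trim Galore 0.4.4, Bowtie2 2.2.4 and build hg19. Midpoints of read pairs were turned into nucleosomes with Genetrack by the authors, and those under 6 reads were removed. The deposited lists give for each nucleosome its read count (whole numbers, not scaled between libraries) and a fuzziness score in bp. Gene regions came from the canonical GENCODE v44lift37 transcript, and a nucleosome was placed by its dyad. Read counts were summed per promoter, body and last exon and tested with edgeR 4.0.16 (mean of 10 or more reads per region), and fuzziness was tested with limma 3.58.1 (at least 10 nucleosomes per body and 5 per last exon). DESeq2 1.42.0 was an alternative. All fits covered all genes that passed these minimums. The main fits, except that of last exon fuzziness against the rest, were tested on simulated data, and the alternatives were not. For the window against its flanks, simulated windows had the read density of their flanks, apart from set changes. That setting differs from windows with 0 reads in all libraries, so the simulation does not show how the fit treats them. Profiles used promoters with at least 50 flank reads, and window shares used promoters with reads in every library. Alternatives covered scaling, filters, GC content, windows and each left-out library. The named genes were a list of 15 known genes and the 5 smallest p-values per region. Also named were the 5 highest and 5 lowest calls between last exon and rest. Others were the 5 members with the most window reads for loss, formation and constant occupancy. The 5 lowest fitted values of window against flanks, the 3 highest and lowest densities and the ends of the runs completed them. Members and lists were chosen with earlier results of these data known. Genes without a unique sequence in the 100-base words may share reads, and intervals were not given because listed nucleosomes start at 6 reads. No expression was analysed here. A further promoter sequence is not reported here.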

Additional observations from a re-analysis of the deposited data

How the results depend on the processing

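Of 167 values under alternatives, 133 were classed the same as the main value. For counts this meant staying within a fixed ratio of the main count. For differences it meant the same sign, and for the mean vector a value within 1 SD. Some values could not differ, since the replicate block repeats the main values of the window states. A count of 0 that stayed 0 was also classed the same. This held for body fuzziness, whose median change in members ran from -0.990 to 1.02 bp over the alternatives. The calls between last exon and rest depended most on the processing. With GC correction 2 members were lower (1.7% of all genes). With the coding part alone 8 were higher and 2 lower (22.2% and 1.36% of all genes), and with at least 12 reads per nucleosome 1 was higher and 2 lower (1.39% and 1.59%). Leaving out a library gave 4 to 8 higher and 12 to 17 lower; without control replicate 1 or knockdown replicate 1 there were 4 higher each. Fewer nucleosomes or libraries enter these fits, except the GC-corrected fit, which used the same 240 members, reads and libraries as the main one. The cause was otherwise not tested. For body occupancy the replicate block called 14 members and 1526 genes in all. After knockdown 12 members were higher (4.88%) and 2 lower (0.813%), against 5.06% and 2.80% of all genes. With GC correction the block called 1 member, which was higher (0.407%), and 142 genes. Of all genes 0.304% were then higher and 0.428% lower. The block changed no other call. Deviations of same-numbered libraries correlated at 0.30 over all promoters, 0.26 over all bodies and 0.08 over all last exons, and at 0.20, 0.53 and 0.24 over those of the members, but 2 pairs and the labels do not establish pairing, and the numbers also follow depth. The knockdown minus control share of empty windows ranged from -3.66 to 6.10 points with a library left out; it was -2.03 without control replicate 2 and -3.66 without knockdown replicate 1. NFR loss then ranged from 10 to 23 members and NFR formation from 8 to 26 because fewer libraries must agree, highest without knockdown replicate 1 for loss and without control replicate 1 for formation. From the most upstream start 10 members showed formation. For these alternatives the matching counts over all promoters were not taken. Windows lower than their flanks at an unadjusted p fell from 124 to between 74 and 76 members with 3 libraries. Against other chromosome 19 genes the members' difference turned to -0.0912 for body density, -0.0858 for last exon density and 0.375 bp for spacing. Body fuzziness turned to 0.0263 bp against other ZNF genes and 0.0752 bp as a mean over genes, and ranged from -0.107 to 0.00135 bp with a library left out, positive only without control replicate 1. The mean vector over whole finger arrays was 0.106 in place of 0.158. Depth limits the windows, since a typical nucleosome had 12 to 18 reads and the minimum was 6.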
